A study of Mus musculus with 30 samples.

Results

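In 3T3-L1 preadipocytes given a scramble siRNA, 17 genes had a short-lived maximum on day -1 of the run-up to adipogenic differentiation. They were chosen from the deposited table of CPM (a gene's reads scaled to a fixed library total) of 55573 genes, using the means of the 5 scramble libraries of each day. A gene was a member if its day -1 mean was at least 5 CPM and at least 1.5 times both the day -2 mean and the day 0 mean. All 17 members were also among the 12016 genes of the deposited count table, on which the tests were run, and they made up 0.165% of the 10292 genes with at least 5 CPM on scramble day -1. The members were Mgst3, Syn1, Mcub, Wnt4, Ptpn6, Peg3, Gas2, Ntrk3, Crybg1, Csrp2, Sncg, Gm1821, Hr, Gm26737, Ccdc184, Igfbp6 and Lrrc15.

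The study measured mRNA in 3T3-L1 cells, an established mouse line of fibroblast-like preadipocytes that can be turned into fat cells in culture. Sub-confluent cells received 50 nM of either a non-targeting scramble siRNA or an siRNA pool against Kdm5c, by Lipofectamine RNAiMAX, on day -3 in preadipocyte medium. Cells were lysed 24, 48 and 72 h later, on days -2, -1 and 0, which gave 6 groups of 5 libraries: scramble day -2, scramble day -1, scramble day 0, Kdm5c siRNA day -2, Kdm5c siRNA day -1 and Kdm5c siRNA day 0. All 6 groups had been transfected, so cells without siRNA were not a group here, and the only agent that differed between the arms was the siRNA. The labels do not say whether the 5 libraries of a group came from separate cultures, so p-values measure only the spread between these libraries.

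Kdm5c encodes a histone demethylase that removes methyl groups from lysine 4 of histone H3, a mark found at active promoters and enhancers. Preadipocytes of this line divide until they touch, stop dividing at confluence, and are then commonly given a hormone mixture that starts fat-cell differentiation. The members belong to no single pathway: they include a Wnt ligand, an IGF-binding protein, a neurotrophin receptor, a protein tyrosine phosphatase, cytoskeletal proteins, proteins best known from neurons, a mitochondrial calcium channel subunit, a glutathione-dependent membrane enzyme and an imprinted zinc finger protein.

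RefSeq promoter entries (GRCm38.p6, 250 bases before to 50 after a start site) were held for 12 of the 17 members. The 5 below were picked after the values were seen. Lrrc15, Sncg and Igfbp6 had the most of their day -1 rise left on day 0 in Kdm5c siRNA cells by group means (103%, 89.7% and 81.0%), Wnt4 had 7.13% left, and Peg3, with 40.6% left, holds a motif that no other member's entry had. Each runs 5′ to 3′ on the gene's own strand, and capitals mark matches on either strand to the motifs searched. These were TATAAA (known as the TATA box), then CCAAT (known as the CCAAT box), then GGGCGG (known as the GC box), then CACGTG (an E-box), then TGANTCA (the site of AP-1 factors) and last GGAATG (the site of TEAD factors).
Lrrc15, chr16:30283205-30283504, minus strand: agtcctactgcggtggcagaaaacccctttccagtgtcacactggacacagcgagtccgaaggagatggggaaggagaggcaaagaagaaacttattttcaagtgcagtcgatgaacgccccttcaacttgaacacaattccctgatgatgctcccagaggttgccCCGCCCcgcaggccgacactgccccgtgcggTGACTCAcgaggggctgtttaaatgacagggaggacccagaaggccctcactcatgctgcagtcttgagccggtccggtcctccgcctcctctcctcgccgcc
Igfbp6, chr15:102143936-102144235, plus strand: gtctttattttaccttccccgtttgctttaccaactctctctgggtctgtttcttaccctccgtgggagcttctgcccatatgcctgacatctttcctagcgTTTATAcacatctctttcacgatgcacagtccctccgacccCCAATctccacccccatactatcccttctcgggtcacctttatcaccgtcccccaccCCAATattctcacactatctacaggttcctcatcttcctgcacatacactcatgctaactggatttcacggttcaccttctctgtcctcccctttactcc
Sncg, chr14:34374620-34374919, minus strand: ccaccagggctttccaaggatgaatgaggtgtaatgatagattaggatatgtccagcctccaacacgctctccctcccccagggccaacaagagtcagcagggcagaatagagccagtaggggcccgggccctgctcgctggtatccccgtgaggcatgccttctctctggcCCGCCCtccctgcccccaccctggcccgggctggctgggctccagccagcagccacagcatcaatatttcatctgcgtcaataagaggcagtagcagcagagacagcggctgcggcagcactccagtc
Wnt4, chr4:137277385-137277684, plus strand: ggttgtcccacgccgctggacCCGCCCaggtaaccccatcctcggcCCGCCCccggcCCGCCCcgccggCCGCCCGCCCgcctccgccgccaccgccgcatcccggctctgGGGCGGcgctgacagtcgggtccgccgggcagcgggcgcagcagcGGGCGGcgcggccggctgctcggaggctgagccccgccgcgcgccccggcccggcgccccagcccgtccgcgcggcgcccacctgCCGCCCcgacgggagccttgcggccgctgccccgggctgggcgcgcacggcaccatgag
Peg3, chr7:6730370-6730669, minus strand: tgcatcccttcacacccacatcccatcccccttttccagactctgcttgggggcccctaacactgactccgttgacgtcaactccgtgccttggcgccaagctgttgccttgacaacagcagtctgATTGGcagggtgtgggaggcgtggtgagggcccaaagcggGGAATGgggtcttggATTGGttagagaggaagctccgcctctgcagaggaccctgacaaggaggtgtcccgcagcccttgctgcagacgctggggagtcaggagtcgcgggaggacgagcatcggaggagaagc
These letters gave no feature held by all of the members. GGGCGG was in a promoter of 8 of the 12 members, against 35.7% of all 32851 promoters of this length, and CCAAT was in 4, against 37.4%. The remaining matches were 1 TATAAA (Igfbp6; 13.6% of all promoters), 1 TGANTCA (Lrrc15; 7.81%) and 1 GGAATG (Peg3; 14.7%), and CACGTG, held by 7.15% of all promoters, was in none of the 12. Matches can overlap, as in the run of GC boxes of Wnt4. The 12 members had 15 entries, and members with several start sites (Gas2 and Crybg1) counted once if any entry matched. The shares of all promoters are per entry, so this way of counting leans the member counts upward. A match describes the letters of the window and is no evidence that a factor binds there.

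Library totals ran from 25217905 to 33725717 reads, and a count of 0 allows up to 3 reads, which is 0.089 to 0.119 CPM. Kdm5c itself was at 16.2%, 18.9% and 25.2% of the scramble mean on days -2, -1 and 0. Fibroblast and preadipocyte markers summed to between 27986 and 40738 CPM in the 6 group means. Of the mature adipocyte markers, 6 of 8 were under 0.12 CPM in every group, as were 6 of 10 leukocyte, 5 of 6 epithelial, 2 of 6 endothelial and all 4 skeletal muscle markers. The other adipocyte markers, Fabp4 and Lipe, had means of 11.3 and 6.48 CPM on scramble day -2, 24.3 and 12.3 on day -1 and 26.2 and 12.8 on day 0. The 6 smooth muscle and pericyte markers, nearly all of them Acta2 by level, summed to 2506, 890.5 and 537 CPM on scramble days -2, -1 and 0 and to 2804, 1099.8 and 713 CPM with Kdm5c siRNA. The part of these markers in the results was not tested. Scramble day -1 replicates 1, 2 and 3 stood apart from replicates 4 and 5 on the first principal component of all genes. For 6 members (Syn1, Mcub, Wnt4, Peg3, Gas2 and Crybg1) those 3 libraries were all above the other pair, for 2 (Ptpn6 and Hr) all below. Without those 3 libraries 16 genes met the rule, 15 of them members (Ccdc184 and Peg3 did not). Without the other pair 20 genes met it, 15 of them members (Gm1821 and Lrrc15 did not). In bulk RNA, fewer cells that express a gene and less RNA per cell cannot be told apart.

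In the scramble cells, which chose the members, the shapes differed mainly in how far each gene came back down. The day -1 mean was between 1.56 and 4.99 times the day -2 mean, and between 1.51 and 4.50 times the day 0 mean. Sncg, the gene for gamma-synuclein, stood farthest above day -2, and Ntrk3, the gene for the neurotrophin-3 receptor TrkC, stood farthest above day 0. In 16 members all 5 scramble day -1 libraries lay above all 10 scramble libraries of the other days, which was so for 4.38% of the genes tested; the exception was Gm1821. These values are a description, since the rule used them. A one-way change was far more common than a peak: 1244 genes with at least 5 CPM were at least 1.5 times their day -2 mean on scramble day -1, and 750 were at least 1.5 times their day 0 mean. The mirrored pattern, a trough on day -1, was met by 2 genes.

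The thresholds cut through a continuous range. The members nearest inside the fold threshold were Lrrc15, Mgst3 and Igfbp6, whose smaller ratios were 1.508, 1.522 and 1.540, and the genes nearest outside were Ank1, Idi1 and Gm1673, at 1.498, 1.495 and 1.493. Nearest inside the level threshold were Ccdc184, Mcub and Ptpn6, at 5.36, 5.44 and 5.82 CPM, and nearest outside were Ndrg2, Mmrn2 and Tnfaip8l1, at 4.94, 4.88 and 4.08 CPM. Levels per length, in CPM per kb of exon on scramble day -1, were highest for Mgst3 (50.6), Csrp2 (26.95) and Gas2 (25.6) and lowest for Ntrk3 (0.593).

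**Figure D1:**
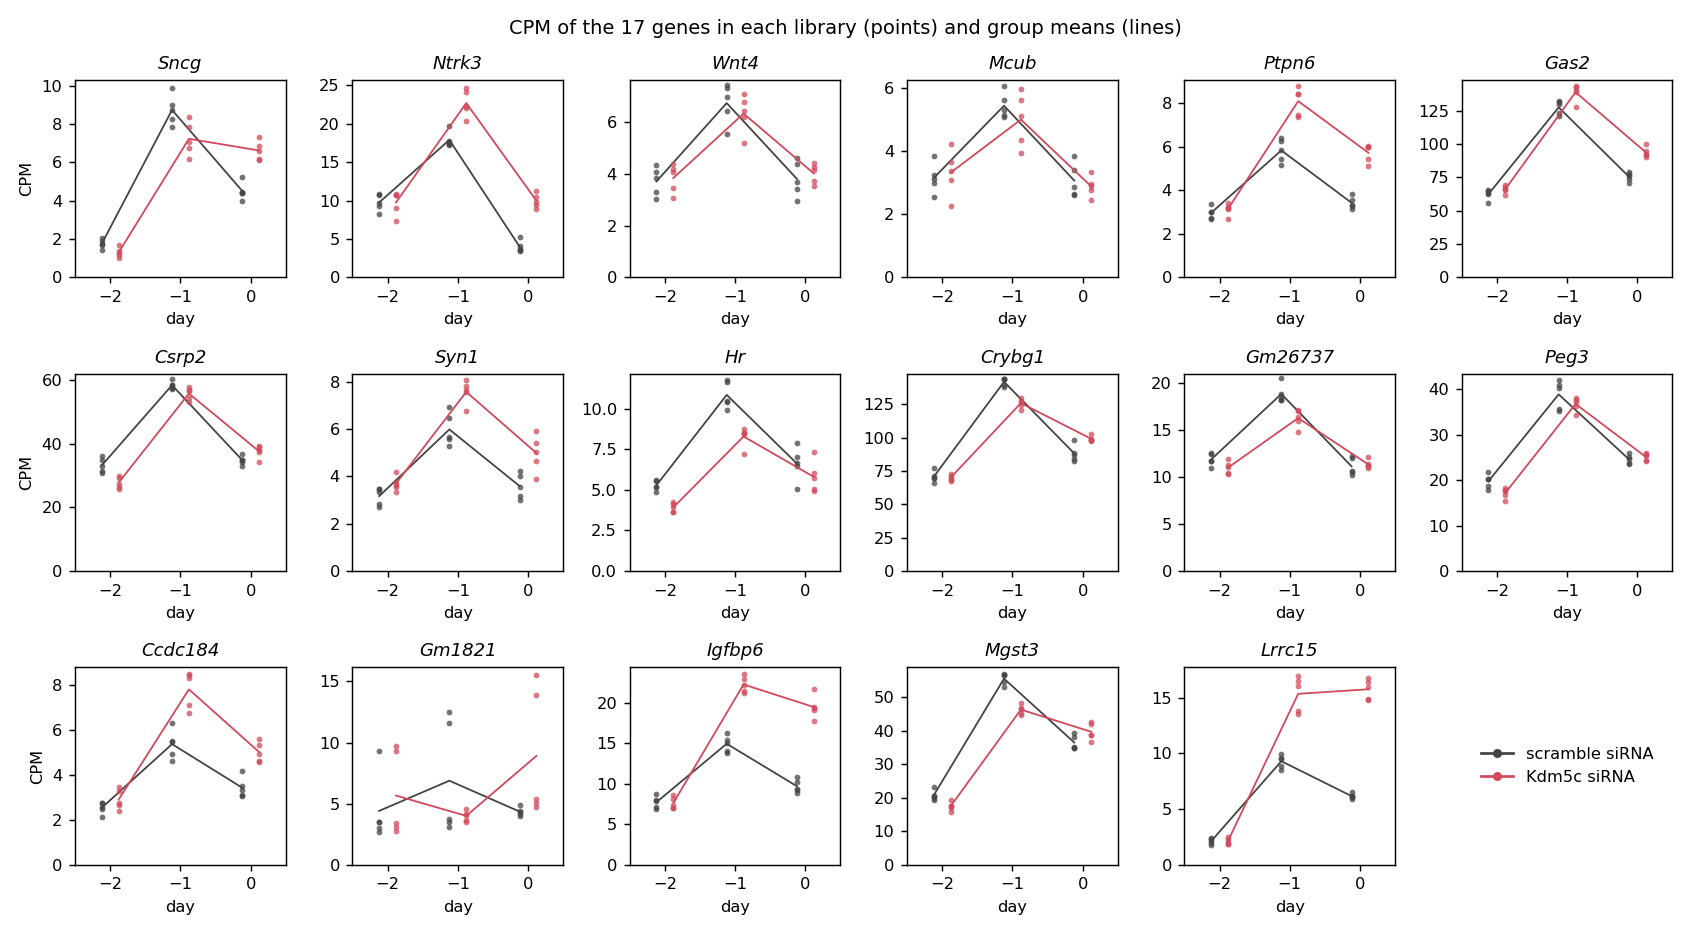
CPM (linear axis from 0, with its own scale in each panel) by day for the 17 genes; points are single libraries, 5 per group, and lines join group means, with scramble siRNA in dark grey and Kdm5c siRNA in red. Lines go down from day -1 to day 0 in both arms for most genes, while the red line of Lrrc15 stays near 15 CPM and Gm1821 is split into high and low libraries.

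Most of the genes also peaked on day -1 in the Kdm5c siRNA libraries, which the rule did not use. From day -2 to day -1, 16 of the 17 rose in Kdm5c siRNA cells, where 38.2% of all genes tested rose and 38.5% fell (edgeR's quasi-likelihood test, adjusted p under 0.05). Lrrc15, a leucine-rich repeat membrane protein of activated fibroblasts, rose most, by a log2 fold change of 2.77 ± 0.0845 (SE), followed by Sncg at 2.40 ± 0.115. Against day 0, 14 members were higher on day -1, where 38.1% of all genes were. The same 14 were higher than both other days, against 3.73% of all genes tested. No member was lower on day -1 than on day -2, with 0 also at an unadjusted p under 0.05, 0 by DESeq2 and 0 by limma. In a fit on whole reads recovered from the CPM table with no filter, Gm1821 was called lower (-0.63). Gm1821 was the only member lower than on day 0, where 36.6% of all genes were.

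By medians, the day -1 peak in Kdm5c siRNA cells was steeper on its first side than on its second. The median log2 fold change of the 17 members was 1.01 from day -2 to day -1, and 0.49 for day -1 over day 0. The medians over all 12016 genes were 0.00 and 0.01. As ratios of mean CPM, the members' medians were 2.12 and 1.44 with Kdm5c siRNA. They were 1.97 and 1.67 in scramble cells, which chose the members. The 2 sides were about even for Ntrk3 (1.15 and 1.15) and Wnt4 (0.65 and 0.62) in log2 units with Kdm5c siRNA. Mcub was steeper on the second side (0.51 and 0.75). All 5 day -1 libraries lay above all 5 day -2 libraries in 15 members (38.8% of all genes) and above all 5 day 0 libraries in 12 (35.1%). In 11 members they lay above all 10 libraries of both other days (4.30% of all genes). Lrrc15 and Sncg did not pass the test against day 0: their log2 fold changes for day -1 over day 0 were -0.08 ± 0.0613 and 0.08 ± 0.0851, with adjusted p of 0.268 and 0.370. Igfbp6 passed narrowly, at 0.16 ± 0.0578 (adjusted p = 0.0158), and lost the call without Kdm5c siRNA day 0 replicate 5, where the log2 fold change was 0.13 (adjusted p = 0.0607).

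With the same 5 CPM and 1.5-fold rule on the Kdm5c siRNA means, 5 members passed: Ntrk3, Wnt4, Ccdc184, Syn1 and Mcub. That is 29.4% of the members and 71.4% of the 7 genes that met the rule in Kdm5c siRNA cells, out of 0.0681% of genes with at least 5 CPM there. The other 2 genes were Gm1673 and Glt8d2, which were under the fold threshold in scramble cells. The 12 members that missed the rule did so mainly on the day 0 side, where Csrp2, Gas2, Peg3, Gm26737, Hr and Ptpn6 had day -1 means between 1.42 and 1.48 times day 0. With CPM on TMM-scaled library sizes, 3 members met the rule in Kdm5c siRNA cells, and without Kdm5c siRNA day -1 replicate 1 the count was also 3.

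**Figure D2:**
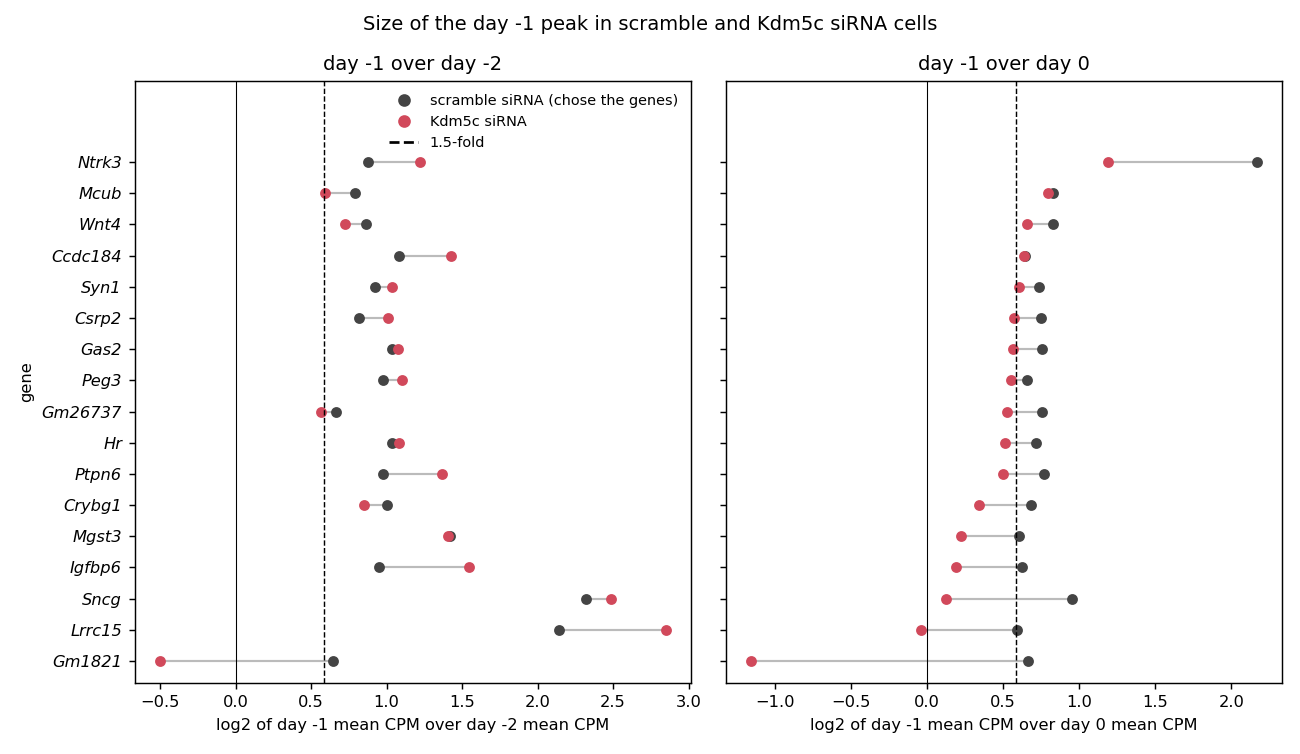
log2 of the day -1 mean CPM over the day -2 mean (left) and over the day 0 mean (right) for each of the 17 genes, in scramble siRNA (dark grey; these values chose the genes) and Kdm5c siRNA (red); the dashed line marks the 1.5-fold rule. On the right, the red points of all 17 genes lie to the left of the grey ones, Ccdc184 and Mcub only slightly, and those of Lrrc15 and Gm1821 lie below 0.

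By group means, most of the genes came down by a smaller part of their rise in Kdm5c siRNA cells. The share of the day -2 to day -1 increase in mean CPM that was left on day 0 had a median of 22.1% in scramble and 41.8% in Kdm5c siRNA cells, over the 16 members with an increase in both arms. It was larger in Kdm5c siRNA cells for 15 of the 16 and smaller for Mcub. Lrrc15 kept 56.4% in scramble and 103% in Kdm5c siRNA cells, Sncg 39.4% and 89.7%, Igfbp6 27.3% and 81.0%, and Mgst3 45.2% and 77.0%. Ntrk3 ended below its starting level in scramble cells, at -70.5%, and back at it in Kdm5c siRNA cells, at 1.65%. These shares carry no test, and the rule required a low scramble day 0 relative to day -1, which by itself leans the comparison towards a larger share in Kdm5c siRNA cells.

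**Figure D3:**
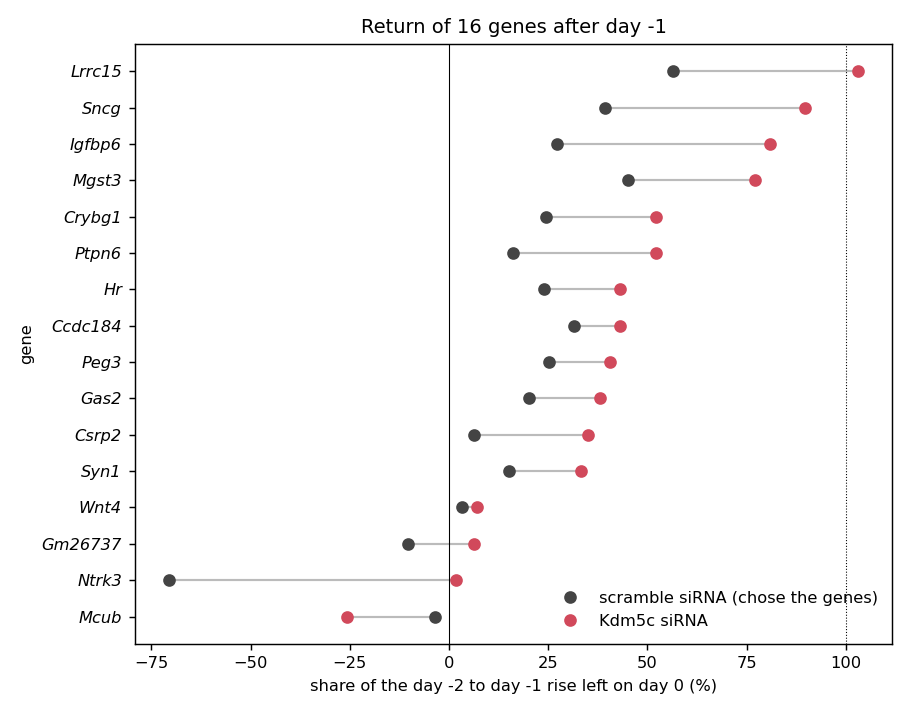
Share (%) of the rise in mean CPM from day -2 to day -1 that was left on day 0, for 16 genes in scramble siRNA (dark grey; these values chose the genes) and Kdm5c siRNA (red); 0 is a full return to the day -2 level and the dotted line at 100 is no return. The red point is to the right of the grey one for every gene but Mcub.

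Compared with scramble on the same day, the differences that passed the test were downward on day -2, in both directions on day -1 and upward on day 0. The scramble libraries in these comparisons also chose the members. Their day -1 values were selected to be high and their day -2 and day 0 values to be low. Neither the counts below nor the p-values of single genes against scramble are free of that choice. It leans the differences downward on day -1 and upward on days -2 and 0. On day -2, 5 members were lower in Kdm5c siRNA cells (Sncg, Hr, Csrp2, Mgst3 and Peg3; 11.9% of all genes were lower). None was higher by edgeR's quasi-likelihood test (11.3% of all genes were), with 2 at an unadjusted p under 0.05, 0 by DESeq2 and 0 by limma. On day -1, 7 were higher (18.8% of all genes) and 5 lower (16.8%). On day 0, 12 were higher (19.3%) and none lower (16.2%), with 0 lower at an unadjusted p under 0.05, by DESeq2 or by limma. DESeq2 called 11 higher, without Gm1821, and limma (pseudocount 0.5) called 10 higher, without Csrp2 and Gm1821. The change of these differences from 1 day to the next contains the scramble contrast that chose the members, which leans it downward from day -2 to day -1 and upward from day -1 to day 0, so the following counts are a description. From day -2 to day -1 it was upward for 2 members (Igfbp6 and Lrrc15; 2.14% of all genes) and downward for none by edgeR's quasi-likelihood test (1.42%), with 1 downward at an unadjusted p under 0.05, 1 by DESeq2 and 0 by limma. From day -1 to day 0 it was upward for 7 (Ntrk3, Sncg, Lrrc15, Igfbp6, Mgst3, Crybg1 and Gas2; 4.06%) and downward for none (1.81%), with 0 downward at an unadjusted p under 0.05, by DESeq2 or by limma.

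The median log2 difference between Kdm5c siRNA and scramble cells over the 17 members was 0.00 on day -2, -0.08 on day -1 and 0.32 on day 0, and over all genes it was 0.00 on each day. Libraries of the 2 arms did not overlap for 3 members on day -2 (16.1% of all genes), 9 on day -1 (22.3%) and 7 on day 0 (21.7%). Of the 12 calls on day 0, those of Csrp2, Mgst3 and Gm1821 were small or unsteady. Leaving out 1 library at a time ended the Csrp2 call in 7 of 10 cases (adjusted p up to 0.107), that of Mgst3 in 5 (up to 0.119) and that of Gm1821 in 7 (up to 0.179).

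**Figure D4:**
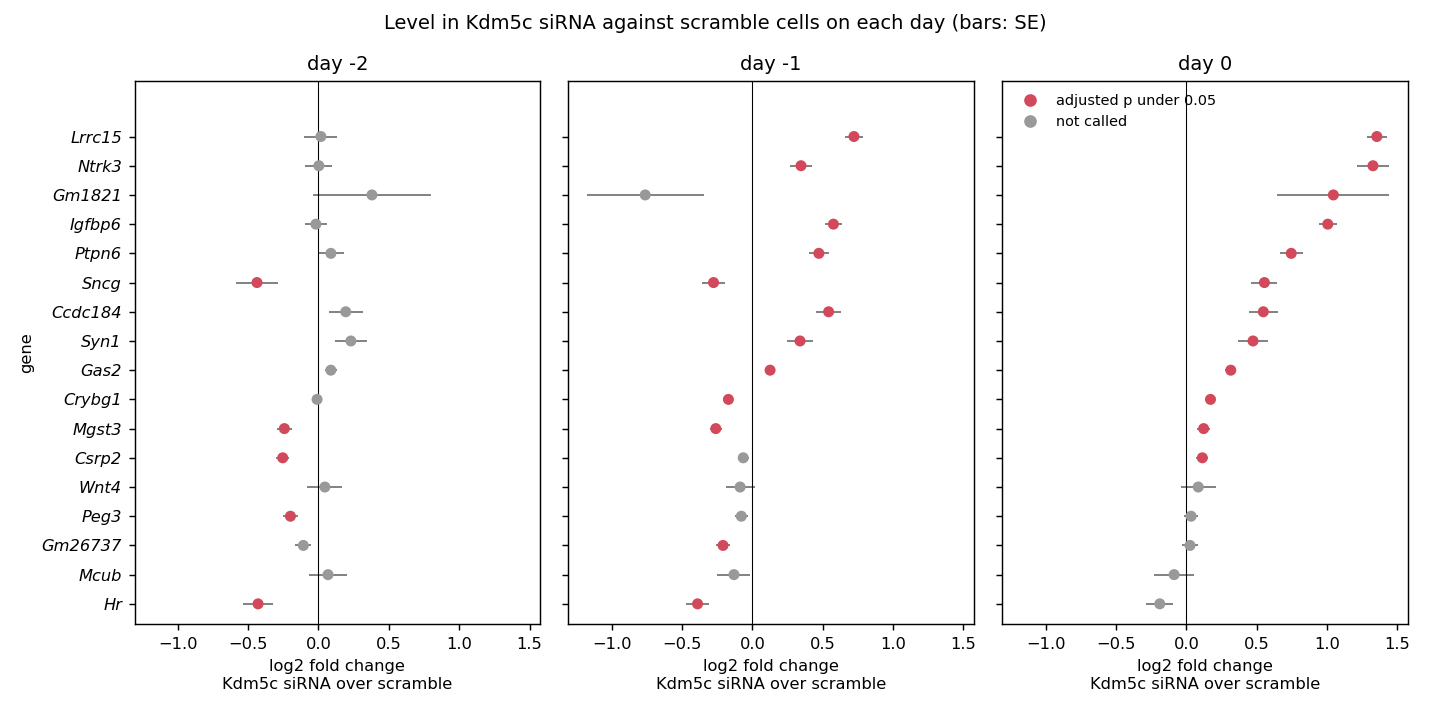
log2 fold change of Kdm5c siRNA over scramble cells on days -2, -1 and 0 for the 17 genes, from the edgeR fit, with bars for the SE; red points have an adjusted p under 0.05 and grey points do not. Red points are all left of 0 on day -2, on both sides on day -1 and all right of 0 on day 0, where Lrrc15 is at 1.35 and Ntrk3 at 1.33. The scramble values in these differences also chose the genes.

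Among secreted ligands and binding proteins, Wnt4 (chr4:137277489-137299726, plus strand, GRCm38) encodes a secreted Wnt ligand, of a family that acts on neighbouring cells through Frizzled receptors. In scramble cells, replicates 1 to 5 measured 4.33, 4.06, 3.84, 3.02 and 3.31 on day -2, 7.33, 7.43, 6.99, 6.43 and 5.57 on day -1, and 2.97, 4.38, 3.41, 3.68 and 4.60 on day 0 (CPM, as for all library values here). With Kdm5c siRNA they measured 4.08, 3.08, 4.41, 3.47 and 4.18 on day -2, 6.42, 5.21, 6.78, 6.20 and 7.09 on day -1, and 3.52, 4.28, 4.43, 3.72 and 4.17 on day 0. In both arms the day -1 libraries lay above those of the other days, and the arms overlapped on every day. Within Kdm5c siRNA cells Wnt4 rose from day -2 by 0.65 ± 0.114 in log2 units (SE, adjusted p = 4.39e-06) and was higher than on day 0 by 0.62 ± 0.112 (adjusted p = 8.08e-06). Its difference from scramble was -0.09 ± 0.103 on day -1 (adjusted p = 0.550). The scramble values in this and the following comparisons between arms chose the members, so their p-values are not free of that choice.

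Igfbp6 (chr15:102144362-102149511, plus strand) encodes a secreted binding protein with a preference for insulin-like growth factor II, and it parted from scramble after day -2. In scramble cells it measured 8.70, 6.91, 7.81, 7.14 and 8.03 on day -2, 15.01, 13.8, 15.4, 14.1 and 16.3 on day -1, and 10.2, 9.33, 9.27, 10.8 and 8.80 on day 0. With Kdm5c siRNA it measured 6.96, 6.98, 8.58, 8.10 and 7.41 on day -2, 23.5, 21.2, 22.9, 22.2 and 21.4 on day -1, and 19.03, 21.7, 19.5, 19.3 and 17.8 on day 0. The arms overlapped on day -2 and did not overlap on days -1 and 0, when every Kdm5c siRNA library was above every scramble library. Kdm5c siRNA cells were higher than scramble by 0.58 ± 0.0595 on day -1 (adjusted p = 2.20e-09) and by 1.01 ± 0.0644 on day 0 (adjusted p = 3.70e-14) on the log2 scale. On day -2 the difference was -0.02 ± 0.0755 (adjusted p = 0.897).

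Among receptors and membrane proteins, Ntrk3 (chr7:78175959-78738012, minus strand), the receptor tyrosine kinase for neurotrophin-3, fell farthest below its day -2 level in scramble cells. There it measured 10.7, 9.66, 10.9, 9.27 and 8.20 on day -2, 17.3, 17.7, 17.6, 17.2 and 19.7 on day -1, and 4.04, 3.50, 5.30, 3.68 and 3.36 on day 0. In the Kdm5c siRNA arm it measured 10.9, 7.32, 10.7, 10.7 and 9.05 on day -2, 22.01, 20.3, 24.2, 24.7 and 22.3 on day -1, and 9.42, 8.94, 9.77, 11.3 and 10.4 on day 0. The peak was higher and the fall smaller with Kdm5c siRNA: the arms overlapped on day -2 and were apart on days -1 and 0. Ntrk3 was higher than in scramble cells by 0.35 ± 0.0794 on day -1 (adjusted p = 8.16e-04) and by 1.33 ± 0.111 on day 0 (adjusted p = 1.90e-11). Within Kdm5c siRNA cells it rose by 1.15 ± 0.0863 from day -2 and was higher than on day 0 by 1.15 ± 0.0858 (adjusted p = 6.15e-14 and 4.99e-14).

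Lrrc15 (chr16:30269302-30283256, minus strand) rose in Kdm5c siRNA cells without a measured fall from day -1 to day 0. In scramble cells it measured 1.97, 2.13, 1.75, 2.27 and 2.43 on day -2, 8.90, 8.55, 9.95, 9.48 and 9.62 on day -1, and 6.21, 6.17, 6.04, 6.53 and 5.88 on day 0. The Kdm5c siRNA libraries measured 2.30, 1.90, 2.51, 1.85 and 2.09 on day -2, 16.5, 13.5, 16.97, 13.8 and 16.01 on day -1, and 14.8, 16.4, 16.8, 15.95 and 14.9 on day 0. The arms overlapped on day -2, with a log2 difference of 0.02 ± 0.118 (adjusted p = 0.939), and every Kdm5c siRNA library was above every scramble library on days -1 and 0. The difference was 0.72 ± 0.0652 on day -1 (adjusted p = 1.11e-10) and 1.35 ± 0.0697 on day 0 (adjusted p = 1.06e-16). Lrrc15 was also the member closest to the fold threshold, and it was not a member when scramble CPM were put on TMM-scaled library sizes.

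Among signalling enzymes, Ptpn6 (chr6:124720707-124738714, minus strand) encodes SHP-1, a protein tyrosine phosphatase best known from blood cells. In scramble cells it measured 2.69, 3.01, 2.98, 3.37 and 2.71 on day -2, 5.43, 5.85, 5.14, 6.40 and 6.27 on day -1, and 3.14, 3.81, 3.262, 3.55 and 3.32 on day 0. With Kdm5c siRNA it measured 3.22, 2.68, 3.15, 3.40 and 3.19 on day -2, 8.41, 7.37, 8.76, 8.43 and 7.44 on day -1, and 5.996, 6.04, 5.10, 5.44 and 5.98 on day 0. The Kdm5c siRNA libraries were above all scramble libraries on days -1 and 0, by log2 differences of 0.47 ± 0.0716 (adjusted p = 3.00e-06) and 0.75 ± 0.0828 (adjusted p = 9.55e-09). Of the 10 leukocyte markers, Adgre1 and C1qb were listed at 0 in every group and Ptprc was at most 0.0262 CPM in any group mean. Cd14 was at 6.004, 6.63 and 5.83 CPM on scramble days -2, -1 and 0 and at 5.42, 6.34 and 5.01 CPM with Kdm5c siRNA, so its mean was highest on day -1 in both arms. Csf1r was highest on day -2, at 5.00 CPM in scramble and 5.69 CPM with Kdm5c siRNA. Cd68 was highest on day 0 in both arms. Its scramble means were 1.31, 1.48 and 1.74 CPM on days -2, -1 and 0. With Kdm5c siRNA they were 1.52, 1.71 and 3.256 CPM, so Cd68, like Ptpn6, was higher than in scramble on day 0. The whole list summed to between 8.79 and 12.8 CPM. The part of these markers in the Ptpn6 values was not tested.

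A pair of members encode proteins best known from neurons. Sncg (chr14:34370274-34374789, minus strand) encodes gamma-synuclein, which is known from neurons and from fat cells, and Syn1 (chrX:20860511-20921004, minus strand) encodes synapsin I, a synaptic vesicle protein. In scramble cells Sncg measured 1.67, 2.03, 1.72, 1.88 and 1.44 on day -2, 9.87, 8.24, 9.01, 7.84 and 8.71 on day -1, and 4.47, 4.00, 4.37, 5.24 and 4.42 on day 0. In the Kdm5c siRNA arm it measured 1.27, 0.983, 1.37, 1.68 and 1.14 on day -2, 7.85, 6.73, 8.34, 7.04 and 6.17 on day -1, and 7.30, 6.61, 6.13, 6.19 and 6.85 on day 0. Sncg crossed over: its log2 difference from scramble was -0.44 ± 0.148 on day -2 (adjusted p = 0.0293) and -0.28 ± 0.0819 on day -1 (adjusted p = 0.00808), and 0.55 ± 0.0920 on day 0 (adjusted p = 1.28e-05). The day -2 call was lost on leaving out any of 5 libraries in turn (scramble day -2 replicates 2 and 4, Kdm5c siRNA day -2 replicates 1, 2 and 5), with log2 fold changes of -0.43 to -0.35 and adjusted p of 0.0507 to 0.107. The day -1 call was lost without scramble day -1 replicates 1, 2 and 3 (-0.20, adjusted p = 0.200).

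In scramble cells Syn1 measured 3.48, 2.81, 3.34, 3.48 and 2.71 on day -2, 6.93, 5.68, 6.46, 5.29 and 5.60 on day -1, and 4.04, 3.16, 4.23, 3.55 and 3.00 on day 0. The Kdm5c siRNA libraries measured 3.36, 3.66, 3.57, 4.19 and 3.73 on day -2, 8.09, 7.82, 7.58, 7.66 and 6.76 on day -1, and 5.05, 5.41, 4.67, 5.94 and 3.88 on day 0. Syn1 peaked in both arms, and its libraries overlapped between arms on each day. It was higher with Kdm5c siRNA by 0.34 ± 0.0900 on day -1 (adjusted p = 0.00330) and by 0.47 ± 0.105 on day 0 (adjusted p = 5.49e-04). Of the 5 neural markers, Sox10 was listed at 0 in each group. Tubb3, a tubulin of neurons, had its highest mean on day -1 in both arms, at 1.25, 1.92 and 0.566 CPM on scramble days -2, -1 and 0 and at 1.55, 2.42 and 0.689 CPM with Kdm5c siRNA. The list summed to between 16.5 and 29.9 CPM, most of it Map2, and its part in the Sncg and Syn1 values was not tested.

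The cytoskeletal members were Gas2, Csrp2 and Crybg1. Gas2 (chr7:51862015-51994975, plus strand) encodes an actin-associated protein first found in growth-arrested fibroblasts, Csrp2 (chr10:110919789-110939622, plus strand) a LIM-domain protein of the actin cytoskeleton, and Crybg1 (chr10:43950636-44148853, minus strand) a protein with beta-gamma crystallin domains. Crybg1 and Gas2 had the highest CPM of the set on scramble day -1, at 142 ± 2.76 and 128 ± 5.12 (SD, n = 5). In scramble cells Gas2 measured 65.8, 63.00, 64.7, 62.5 and 55.9 on day -2, 130.3, 132, 131, 123 and 121 on day -1, and 79.1, 76.3, 77.9, 70.8 and 73.9 on day 0. With Kdm5c siRNA it measured 69.3, 61.5, 65.7, 67.7 and 66.5 on day -2, 141, 128, 144, 139 and 143 on day -1, and 95.2, 90.2, 91.6, 100.2 and 92.3 on day 0. All day -1 libraries were above those of the other days in both arms, and the arms overlapped on days -2 and -1 and not on day 0.

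Within Kdm5c siRNA cells Gas2 rose by 1.00 ± 0.0385 from day -2 and was higher than on day 0 by 0.53 ± 0.0374 (adjusted p = 1.41e-21 and 1.20e-14). Gas2 was higher than in scramble by 0.13 ± 0.0366 on day -1 (adjusted p = 0.00723) and by 0.32 ± 0.0389 on day 0 (adjusted p = 7.28e-08). Crybg1 went the other way on day -1, lower by -0.17 ± 0.0321 (adjusted p = 7.39e-05), and was higher on day 0 by 0.17 ± 0.0335 (adjusted p = 1.25e-04). Its Kdm5c siRNA libraries ran from 121 to 129.6 CPM on day -1, below all 5 scramble libraries (138 to 144 CPM). Csrp2 was lower on day -2 by -0.25 ± 0.0446 (adjusted p = 5.97e-05), with means of 27.8 ± 1.82 against 33.3 ± 2.27 CPM (SD, n = 5), and it was not called on day -1 (-0.07 ± 0.0396, adjusted p = 0.208).

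Mitochondria and detoxification were represented by a gene each. Mcub (chr3:129914960-129970206, minus strand) encodes a subunit that holds back the mitochondrial calcium uniporter, and Mgst3 (chr1:167371966-167393841, minus strand) a microsomal glutathione S-transferase. In scramble cells Mgst3 measured 23.2, 20.7, 19.8, 20.6 and 19.4 on day -2, 56.8, 56.6, 54.4, 53.1 and 56.6 on day -1, and 35.2, 34.9, 38.1, 39.3 and 34.8 on day 0. In the Kdm5c siRNA arm it measured 19.3, 15.9, 17.6, 17.6 and 17.03 on day -2, 46.8, 46.4, 44.6, 48.2 and 45.3 on day -1, and 36.5, 41.9, 42.6, 38.8 and 38.6 on day 0. Mgst3 was not a member on TMM-scaled scramble CPM. It was lower with Kdm5c siRNA on day -2 (-0.24 ± 0.0541, adjusted p = 0.00108) and on day -1 (-0.26 ± 0.0438, adjusted p = 1.58e-05), without overlap of the libraries, and its day 0 libraries overlapped. Mcub was not called between the arms on any day, with log2 differences between -0.13 and 0.07. Its Kdm5c siRNA libraries overlapped between days -2 and -1, at 2.27 to 4.22 and 3.94 to 5.99 CPM, and it still rose by 0.51 ± 0.128 (adjusted p = 5.43e-04).

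Another pair of members encode nuclear proteins. Hr (chr14:70552212-70573548, plus strand) encodes hairless, a corepressor of nuclear receptors, and Peg3 (chr7:6703892-6730431, minus strand) an imprinted zinc finger protein made from the paternal copy. In scramble cells Hr measured 4.89, 5.56, 5.16, 5.61 and 5.18 on day -2, 10.4, 9.92, 10.5, 11.8 and 11.6 on day -1, and 7.91, 5.03, 6.64, 7.03 and 6.46 on day 0. The Kdm5c siRNA libraries measured 3.95, 3.63, 4.14, 3.64 and 4.22 on day -2, 8.45, 8.75, 8.52, 8.50 and 7.21 on day -1, and 7.33, 6.01, 5.70, 4.90 and 5.04 on day 0. Hr was lower with Kdm5c siRNA and without overlap on day -2 (-0.43 ± 0.105, adjusted p = 0.00282) and day -1 (-0.39 ± 0.0840, adjusted p = 3.98e-04); on day 0 the difference was -0.19 ± 0.0954 (adjusted p = 0.126). Leaving out scramble day 0 replicate 2 or Kdm5c siRNA day 0 replicate 1 brought a day 0 call for Hr, at -0.27 (adjusted p = 0.0205) and -0.29 (adjusted p = 0.0159). Peg3 was lower on day -2 (-0.20 ± 0.0558, adjusted p = 0.00843) and was not called on the other days, and it rose in Kdm5c siRNA cells from 17.2 ± 1.13 to 36.8 ± 1.48 CPM (SD, n = 5) between days -2 and -1.

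A less described coding gene and an antisense RNA completed the regular peaks. Ccdc184 (chr15:98167158-98170134, plus strand), named for its coiled-coil domain, had scramble means of 2.53 ± 0.253, 5.36 ± 0.644 and 3.42 ± 0.457 CPM and Kdm5c siRNA means of 2.90 ± 0.455, 7.79 ± 0.817 and 5.00 ± 0.452 CPM (SD, n = 5) on days -2, -1 and 0. Its libraries did not overlap between arms on days -1 and 0, and it was higher with Kdm5c siRNA by 0.54 ± 0.0907 and 0.55 ± 0.105 (adjusted p = 1.44e-05 and 9.94e-05). Gm26737 (chr9:44112923-44121960, plus strand), annotated as an antisense RNA, was lower with Kdm5c siRNA on day -1 by -0.21 ± 0.0512 (adjusted p = 0.00157) and was not called on the other days. It shares 313 exon bases, 13.7% of its exon length, with Rnf26 on the opposite strand, and the Rnf26 mean was 7.84 CPM on day -1 against 8.71 on day -2 in scramble and 7.67 against 8.43 with Kdm5c siRNA. Exon overlaps of 9 to 546 bases with genes on the opposite strand were also found for Syn1, Ptpn6, Gas2 and Crybg1; whether the authors' counting used strand is not given in the sources used here.

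Gm1821 (chr14:46084028-46085000, plus strand), annotated as a transcribed processed pseudogene, went against the description of the set. In scramble cells it measured 3.51, 2.72, 9.30, 2.98 and 3.52 on day -2, 12.5, 3.72, 3.13, 3.48 and 11.6 on day -1, and 4.14, 4.88, 4.41, 4.35 and 3.98 on day 0. With Kdm5c siRNA it measured 3.43, 9.70, 2.77, 9.30 and 3.12 on day -2, 3.49, 3.67, 4.14, 4.10 and 4.60 on day -1, and 15.5, 5.41, 4.71, 5.08 and 13.8 on day 0. Its values fell into 23 libraries at 2.72 to 5.41 CPM and 7 at 9.30 to 15.5 CPM, and the high libraries were spread over 4 of the 6 groups: 1 on scramble day -2, 2 on scramble day -1, 2 on Kdm5c siRNA day -2 and 2 on Kdm5c siRNA day 0. Its day -1 mean rested on scramble replicates 1 and 5, the other 3 libraries were at 3.13 to 3.72 CPM, and it was the one member without a rise in Kdm5c siRNA cells (-0.59 ± 0.426, adjusted p = 0.208). In Kdm5c siRNA cells it was lower on day -1 than on day 0 by -1.19 ± 0.399 (adjusted p = 0.00806), a call that ended without Kdm5c siRNA day 0 replicate 1 (-0.89, adjusted p = 0.0543). It was not a member on TMM-scaled scramble CPM. As a processed pseudogene it may share reads with its parent gene, so its counts are uncertain.

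The other genes of the members' pathways moved in both directions around day -1. Of 27 functional gene lists, 3 held a member. The Wnt list had 21 other tested genes besides Wnt4: in Kdm5c siRNA cells 6 were higher and 10 lower on day -1 than on day -2 (38.2% and 38.5% of all genes tested), and 4 were higher and 13 lower than on day 0 (38.1% and 36.6%). Those 21 genes, without Wnt4, had median log2 fold changes of -0.06 and -0.19, beside 0.00 and 0.01 over all genes. In the list of growth factors, their receptors and regulators, which holds Igfbp6 and Ntrk3, 22 of the 40 others were higher and 15 lower on day -1 than on day -2, beside the same 38.2% and 38.5% of all genes, and 13 were higher and 22 lower than on day 0, beside 38.1% and 36.6%.

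Of those 40 growth factor genes, 4 were called higher than both other days in Kdm5c siRNA cells, as were 3.73% of all genes: Fgf7, Pdgfb, Hgf and Angptl2. Hgf, the hepatocyte growth factor, described here after its values were seen, had scramble means of 57.6 ± 2.06, 98.1 ± 1.602 and 66.3 ± 4.82 CPM and Kdm5c siRNA means of 52.7 ± 2.01, 87.5 ± 4.14 and 76.1 ± 3.34 CPM (SD, n = 5) on days -2, -1 and 0. In the list of p53 targets and growth arrest genes, which holds Gas2, 18 of the 27 others were higher and 6 lower on day -1 than on day -2 (38.2% and 38.5% of all genes), and 4 were higher and 18 lower than on day 0 (38.1% and 36.6%). Those 27 others had medians of 0.38 and -0.19, and Gas2 itself was higher on day -1 than on both other days.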

How the data were processed

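RNA was isolated with a miRNeasy micro kit and made into strand-specific NuGEN Universal plus mRNA-Seq libraries, per the labels' protocols. STAR 2.7.2a, edgeR 3.26.8 and GRCm38 are named in the submitters' processing notes, with no role or order. No source used here names the read counter. CPM for 55573 genes were deposited and are whole reads over the library total, since 100% of nonzero values came within 0.05 reads of a whole number. The authors' other deposited table, named as normalized counts, held raw counts of the 12016 genes with at least 1 CPM in 20 or more libraries, and 100% of its values matched the reads recovered from CPM. The members, gene lists and comparisons were chosen with earlier results of these data known. Every member with a gene name was described.

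Counts were tested with edgeR 4.0.16 (R 4.3.3): TMM scaling, 1 mean per group over all 30 libraries (24 residual degrees of freedom), quasi-likelihood tests with default (non-robust) dispersions, and Benjamini-Hochberg adjustment over 12016 genes, called at 0.05. The script was tested on simulated counts. Robust dispersions, tried after the data were seen, were kept as an alternative only. CPM are printed as the authors deposited them, and errors on their means are the SD of 5 libraries; limits from a count of 0 cover counting error only. Alternatives used DESeq2 1.42.0, limma 3.58.1 (pseudocounts 0.1, 0.5 and 2), other scalings and filters, a replicate block, and each library left out. Coordinates came from GENCODE M21 (GRCm38), and promoters from RefSeq.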

Additional observations from a re-analysis of the deposited data

Results flagged for a closer look

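The gap between Kdm5c siRNA and scramble cells differed from 1 day to the next for 9 of 34 combinations of gene and day pair by edgeR's quasi-likelihood test of the difference of log2 fold changes. These differences contain the scramble values that chose the members (a high day -1, a low day -2 and day 0), so the sizes are given as a description and no p-value is printed. The choice leans the change from day -2 to day -1 downward and the change from day -1 to day 0 upward. From day -2 to day -1 the gap grew by 0.59 ± 0.0962 (SE) on the log2 scale for Igfbp6 and by 0.70 ± 0.135 for Lrrc15; 2.14% of all genes had a call in this direction. From day -1 to day 0 the log2 difference moved upward by 0.19 ± 0.0534 for Gas2 and 0.34 ± 0.0464 for Crybg1. The move was 0.38 ± 0.0637 for Mgst3, 0.43 ± 0.0881 for Igfbp6 and 0.63 ± 0.0963 for Lrrc15. Sncg moved by 0.83 ± 0.123 and Ntrk3 by 0.98 ± 0.138, and 4.06% of all genes had an upward call. Crybg1, Mgst3 and Sncg changed sign, from -0.17, -0.26 and -0.28 on day -1 to 0.17, 0.12 and 0.55 on day 0. The Gas2 call was lost in 6 of 20 fits without 1 library (0.16 to 0.18) and without scramble day -1 replicates 1, 2 and 3 together (0.13). With the replicate number as a block, Csrp2 was also called in both steps (0.19 and 0.18) and Crybg1 from day -2 to day -1 (-0.16).

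In 4 of the 102 gene and group combinations a single library lay far from the other 4, where chance would give 5.1. Ntrk3 was at 19.7 CPM in scramble day -1 replicate 5, with the next library at 17.7. Gm1821 was at 9.30 CPM in scramble day -2 replicate 3, with the next at 3.52. Hr was at 7.21 CPM in Kdm5c siRNA day -1 replicate 5, with the nearest other library at 8.45. Gm26737 was at 20.5 CPM in scramble day -1 replicate 3, with the next at 18.9.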

How the results depend on the processing

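Of 3128 gene-level values under alternatives, 3035 kept their side of the threshold, 46 lost a call and 47 gained one. Direction reversed in 0 values with a call in the main or the alternative fit. Values without a call in either fit were not required to keep their direction. The membership depended on its thresholds: 68 genes met the rule at 1.3-fold, 0 at 2-fold, 45 with a minimum of 1 CPM and 9 with a minimum of 10 CPM, and 15 to 20 when 1 library was left out. On TMM-scaled CPM, the scaling used in the tests, 14 met it, without Gm1821, Lrrc15 and Mgst3. The count of members meeting the rule with Kdm5c siRNA was 3 on TMM-scaled CPM, 11 at 1.3-fold, 1 at 2-fold and 1 with a minimum of 10 CPM, and 3 to 6 when 1 library was left out; the cause was not tested. On whole reads recovered from the CPM table with no filter, 1 member, Gm1821, was higher with Kdm5c siRNA on day -2 (log2 0.38). In that fit Gm1821 was also called lower than scramble on day -1 (-0.76). It was called lower on Kdm5c siRNA day -1 than on Kdm5c siRNA day -2 as well (-0.63). Without scramble day -1 replicates 1, 2 and 3, 7 members were higher and 4 lower than scramble on day -1. Without scramble day 0 replicate 2 or Kdm5c siRNA day 0 replicate 1, 1 member (Hr) was lower on day 0, so that count ran from 0 to 1. With 1 library left out, 16 to 16 members were higher than on Kdm5c siRNA day -2, 13 to 14 than on day 0 and 13 to 14 than on both; on day 0, 9 to 12 were higher than scramble. With robust dispersions, added after seeing the data, Gm1821 lost its day 0 call (adjusted p = 0.0834), leaving 11 higher, and Crybg1 gained one for the change from day -2 to day -1 (-0.16). Scaling by library totals alone turned the Kdm5c siRNA day -1 against day -2 split over all genes from 4596 higher and 4630 lower to 5605 and 3643, while 16 members stayed higher. The recovered reads of 15135 genes, of which 100% of nonzero values were whole, gave 5193 higher and 5178 lower in that comparison. Replicate numbers were not shown to pair the libraries: correlations of the deviations of same-numbered libraries ran from -0.0572 to 0.307 between Kdm5c siRNA days -1 and -2, over 0.1 in 1 of 5 pairs. With the replicate block the same comparisons gave 16, 14 and 14 members higher than day -2, day 0 and both, and 11 higher than scramble on day 0 (Gm1821 was lost, adjusted p = 0.0602); 3 calls of changes between days were gained, for Csrp2 in both steps and Crybg1 from day -2 to day -1. On day -1, Mcub, Ccdc184, Syn1, Wnt4, Ptpn6 and Sncg rested on 131 to 285 reads a library, which limits their precision. Gm1821 rested on 88 to 155 reads a library with Kdm5c siRNA and 93 to 350 in scramble on that day.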
